A study of Homo sapiens with 12 samples.

Results

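The genes described here are the expressed human genes that span 400 kb or more. They were chosen by the gene length in the authors' table, at least 400000 bases, and by level, a mean of at least 1 CPM (a gene's count over the library's human total, times 1e6) over the 4 untreated libraries. Of 60666 human gene rows, 693 had that length and 227 of those had that level. 4 were left out by name (RAD51B, long intergenic non-coding RNAs, zinc finger genes named ZNF, and numbered antisense genes), which left 223 members, beside 14775 genes of any length with that level. All 223 were among the 20791 genes tested.

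Poly(A) RNA came from cells of DLD-1, an established line of human colorectal adenocarcinoma. The cells express the plant receptor OsTIR1 at all times and carry an auxin-inducible degron (AID) on SPT6 (genotype SPT6-AID OsTIR1) or on PAF1 (genotype PAF1-AID OsTIR1). Each line was sampled before auxin (0 h) and after 2 and 6 h in 500 µM auxin, with 2 libraries in each of the 6 groups. Untagged cells given auxin were not analysed here, so loss of the tagged protein and any other action of auxin cannot be told apart. The labels do not say whether the libraries of a group were separate cultures or whether a line is 1 clone, so the p-values below speak for the scatter of these libraries, which could be technical, and not of cultures.

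A gene of this size is mostly intron, and RNA polymerase II needs hours rather than minutes to cross it before a finished mRNA can leave. SPT6 is a histone chaperone that travels with the elongating polymerase, and PAF1 belongs to the PAF1 complex, which also rides on the polymerase and helps it through the gene body. Very long genes include many known for adhesion, synapses and muscle, and several lie at common fragile sites, regions that break when replication is slowed.

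Human counts per library ran from 29961183 to 110340057, and members held 0.585% to 0.829% of them. Of 14 colorectal epithelium markers, 11 had a mean of at least 1 CPM in every group, CDX1 was at 0 in every library, and their summed level was 4220 to 6600 CPM. Summed markers of other cell types stayed at or below 39.7 CPM for blood, 3.80 CPM for fibroblasts, 2.52 CPM for endothelium and 0.176 CPM for neurons. The fibroblast genes LUM and COL1A2 and the neuronal gene SNAP25 were at 0 in all libraries.

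The deposited length of the members ran from 400 kb to 2305 kb, with a median of 523 kb, and 17 spanned 1 Mb or more. GENCODE release 29 lists 215 as protein coding and 8 as not. A typical member had a main transcript of 18 exons and 5847 bases, which is 1.30% of that transcript's span on the genome, and a longest intron of 136 kb. Expressed genes of 200 to 400 kb had a median longest intron of 74.5 kb, and those of 10 to 30 kb one of 5.63 kb. Gene length and transcript length are not the same thing here. The main transcript, taken as the principal coding transcript in GENCODE, spanned 400 kb or more in 157 members, 200 to 400 kb in 44 and under 200 kb in 22.

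Levels at 0 h, which chose the members and are given as a description, had a median of 16.1 CPM and ran from 1.04 to 295 CPM. Under 5 CPM lay 57 members, between 5 and 50 CPM 119, and at 50 CPM or more 47. The highest mean belonged to MACF1, a linker of actin and microtubules, at 295 CPM. After it came SND1, a nuclease-domain protein of RNA regulation, at 256 CPM, then RORA, an orphan nuclear receptor, RERE, a nuclear receptor corepressor, and STAG2, a cohesin subunit. Per kb of deposited transcript, which is the scale on which genes can be compared, SND1 led with 39.5 CPM per kb, STAG2 had 25.3, RORA 14.0 and the median member 1.45. The same median was 3.07 CPM per kb in genes of 200 to 400 kb and 5.97 in genes of 30 to 100 kb.

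Just inside the length threshold lay BMPR1B (400.494 kb) and TRPS1 (401.178 kb), and just outside it SPATA5 (396.364 kb) and GTDC1 (394.501 kb). By level, MAPK10 (1.04 CPM) and HECW1 (1.08 CPM) were just inside, and SLC24A3 (0.994 CPM) and CASC15 (0.983 CPM) just outside. Between the lines at 0 h, 217 of 223 members had mean levels within 2-fold of each other (0.5 CPM added to each). SEMA5A, a transmembrane semaphorin, stood at 31.2 CPM in SPT6-AID cells and 5.57 CPM in PAF1-AID cells. CREB5, a transcription factor of the CREB family, showed the reverse, with 0.591 CPM and 4.80 CPM. These were the 2 members apart by 4-fold or more, and both were singled out after their values were seen. For CREB5 a single library carried the difference. Its PAF1-AID value came from 8.55 CPM in replicate 3 and 1.04 CPM in replicate 4. The fold between the lines was 1.41 without replicate 3, against 4.86 with it. For SEMA5A only the passing of 4-fold depended on 1 library, with a fold of 3.26 without replicate 2 of SPT6-AID, against 5.22 with it. Both SPT6-AID libraries (19.3 and 43.1 CPM) lay above both PAF1-AID ones (5.92 and 5.23 CPM).

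Promoters are shown for 4 members that the comparisons below turn on, to let their sequence be read beside their response. LAMA2 and FMN1 had lower RNA at 6 h in both lines, FOXP1 in PAF1-AID cells, and KCNQ5 had higher RNA in SPT6-AID cells. Each is 250 bases before and 50 bases after a transcription start in RefSeq (GRCh38.p14), within 500 bases of the start of the main GENCODE transcript, written 5′ to 3′ on the gene's strand, with CG dinucleotides in capitals.
LAMA2, chr6:128882888-128883187 (plus strand): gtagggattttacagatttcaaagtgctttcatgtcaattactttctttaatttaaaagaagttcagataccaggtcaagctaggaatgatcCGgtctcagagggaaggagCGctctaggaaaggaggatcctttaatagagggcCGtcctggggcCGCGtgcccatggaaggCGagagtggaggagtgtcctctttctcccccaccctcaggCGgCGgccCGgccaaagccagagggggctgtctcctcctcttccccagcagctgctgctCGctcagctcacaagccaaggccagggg
FMN1, chr15:33068125-33068424 (minus strand): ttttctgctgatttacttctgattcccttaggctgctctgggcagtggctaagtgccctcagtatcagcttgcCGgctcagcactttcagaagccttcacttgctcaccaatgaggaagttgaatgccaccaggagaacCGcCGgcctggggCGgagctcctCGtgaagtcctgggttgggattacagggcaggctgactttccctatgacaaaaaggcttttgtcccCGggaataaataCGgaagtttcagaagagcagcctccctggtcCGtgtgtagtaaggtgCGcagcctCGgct
FOXP1, chr3:71583679-71583978 (minus strand): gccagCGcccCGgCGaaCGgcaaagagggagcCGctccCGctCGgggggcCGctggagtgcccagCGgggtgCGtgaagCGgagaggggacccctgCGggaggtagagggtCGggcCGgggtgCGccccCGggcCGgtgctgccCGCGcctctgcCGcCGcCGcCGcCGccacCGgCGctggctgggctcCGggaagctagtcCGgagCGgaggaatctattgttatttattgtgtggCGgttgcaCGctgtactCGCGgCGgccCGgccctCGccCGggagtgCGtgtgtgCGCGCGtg
KCNQ5, chr6:72621814-72622113 (plus strand): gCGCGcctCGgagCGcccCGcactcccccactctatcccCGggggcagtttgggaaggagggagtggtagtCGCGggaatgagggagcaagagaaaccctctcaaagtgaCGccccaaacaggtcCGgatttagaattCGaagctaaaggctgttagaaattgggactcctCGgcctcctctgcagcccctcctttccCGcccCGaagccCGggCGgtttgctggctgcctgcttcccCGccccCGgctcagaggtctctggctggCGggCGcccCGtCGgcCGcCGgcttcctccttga

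LAMA2 and FMN1 held 10 CG dinucleotides each in these windows, KCNQ5 held 24 and FOXP1 held 41. The windows thus differ widely between members whose RNA moved the same way. RefSeq's table held a promoter for 179 members, and 154 had one at the start of the main transcript, with a median of 25 CG dinucleotides. The medians were 29 for the 23 of them lower in SPT6-AID cells at 6 h, 15.5 for the 12 lower in PAF1-AID cells, and 27 for 8979 expressed genes of any length. The letters TATAAA, searched on both strands, occurred in 9.09% of the members' windows, 5.26% of those of expressed genes and 10.0% of all 16203 windows of this kind. None of the printed windows holds them.

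After 2 h of auxin in SPT6-AID cells, no member passed the threshold, an adjusted p below 0.05 in edgeR's quasi-likelihood test, while 0.548% of all genes tested did. The median log2 fold change of the members was -0.04, beside 0.01 for all genes. That of the 14552 other genes with at least 1 CPM at 0 h was -0.008. At an unadjusted p below 0.05 there were 4 members, 1.79% of the 223 beside 7.42% of all genes tested, and DESeq2 called the same 4: RORA, AHR, PDE4D and BACH1. All had lower values at 2 h. RORA had 261 and 282 CPM at 0 h and 173 and 166 CPM at 2 h in SPT6-AID cells, a log2 fold change of -0.69 (SE 0.17, adjusted p = 0.136). PDE4D, a phosphodiesterase that breaks down cyclic AMP, had 103 and 111 CPM at 0 h and 66.2 and 65.1 CPM at 2 h, a log2 fold change of -0.71 (SE 0.17, adjusted p = 0.113). In these 2 genes the libraries at 2 h lay below both at 0 h. They did not pass in edgeR as fitted here, but both did in edgeR with no filter on low counts (adjusted p = 0.0123 for RORA and 0.0142 for PDE4D).

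After 2 h in PAF1-AID cells, again no member passed, beside 0.149% of all genes tested. The members' median was 0.05 and that of all genes 0.01. At an unadjusted p below 0.05 there were 7 members, 3.14% of the 223 beside 7.39% of all genes tested, and DESeq2 called 1 of them, RORA. Its values were 234 and 175 CPM at 0 h and 101 and 117 CPM at 2 h, a log2 fold change of -0.83 (SE 0.17, adjusted p = 0.118 in edgeR). AHR, the receptor for aromatic hydrocarbons, had 154 and 147 CPM at 0 h and 81.8 and 88.3 CPM at 2 h (log2 fold change -0.74, SE 0.24, adjusted p = 0.393). The libraries at 2 h were the lower ones for both genes. For the difference between the 2 lines' responses at 2 h, 0 members passed in edgeR, 0 had an unadjusted p below 0.05 and 0 passed in DESeq2, beside 0.0337% of all genes tested.

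At 6 h in SPT6-AID cells, 37 members fell and 2 rose, together 17.5% of the 223, while 25.2% of all genes tested passed. By direction, 16.6% of members and 16.4% of all genes tested fell, and 0.897% of members and 8.76% of all genes rose. The members' median log2 fold change was -0.18, beside 0.04 for all genes tested. The median of the 14552 other genes of at least 1 CPM at 0 h was -0.09. The comparisons at 2 and 6 h of a line share its libraries at 0 h. Among the 14775 genes of any length with at least 1 CPM at 0 h, the level that members had to reach, 22.6% fell and 4.26% rose. The members' share that fell was thus close to that of all genes tested and below that of genes with the same minimum level, and the share that rose was below both. In the separate libraries the members' median was -0.11 for replicate 1 and -0.28 for replicate 2. Replicate 2 at 6 h was also the library with the fewest human counts. Without it fewer members passed, and fewer of all genes tested. In bulk RNA, fewer cells that express a gene and less of its RNA per cell cannot be told apart. The changes above rest on TMM scaling. Scaled by fly totals, 32.3% of members and 32.7% of all genes tested passed, and the medians of both were lower.

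**Figure D1:**
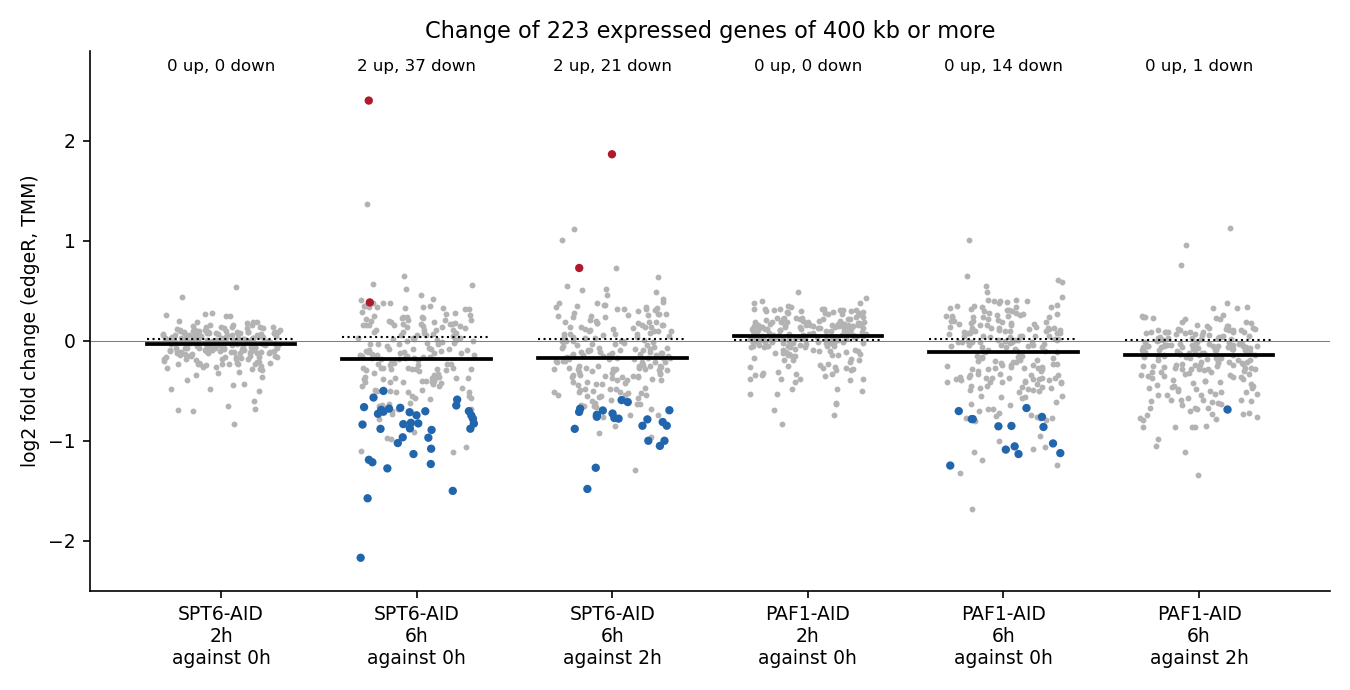
Log2 fold change (edgeR, TMM scaling) of each of the 223 genes in 6 comparisons, with genes past the threshold in blue (lower) or red (higher), the members' median as a solid bar and the median of all genes tested as a dotted bar. The members passing are 0 at 2 h in either line, 39 in SPT6-AID cells and 14 in PAF1-AID cells at 6 h against 0 h, and nearly all of them lie below 0.

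The member that fell most was RORA, with 261 and 282 CPM at 0 h and 68.7 and 53.0 CPM at 6 h in SPT6-AID cells (log2 fold change -2.17, SE 0.18, edgeR adjusted p = 9.75e-05). Its levels at 2 h, given above, lie between those at 0 h and at 6 h, with no overlap between the 3 times. AHR had 136 and 92.7 CPM at 0 h, 78.2 and 50.6 CPM at 2 h and 48.7 and 28.5 CPM at 6 h. It fell by 1.58 on the log2 scale at 6 h (SE 0.24, edgeR adjusted p = 0.00115), and the libraries at 6 h lay below both at 0 h and both at 2 h. GSE1, a coiled-coil protein found with chromatin-modifying complexes, had 176 and 148 CPM at 0 h, 144 and 133 CPM at 2 h, and 74.7 and 41.4 CPM at 6 h. Both libraries at 2 h were slightly below both at 0 h, and those at 6 h were lower still (log2 fold change at 6 h -1.50, SE 0.21, edgeR adjusted p = 0.000739).

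GPHN, gephyrin, which finishes the molybdenum cofactor and anchors receptors at inhibitory synapses, had 19.6 and 13.2 CPM at 0 h and 8.77 and 4.84 CPM at 6 h (log2 fold change -1.28, SE 0.27). Both libraries at 6 h were below both at 0 h. RPTOR, the raptor subunit of the growth-controlling mTOR complex, had 75.5 and 62.1 CPM at 0 h and 38.1 and 21.1 CPM at 6 h, a log2 fold change of -1.23 (SE 0.20, edgeR adjusted p = 0.00157). PDE4D stood at 56.0 and 38.6 CPM at 6 h, a log2 fold change of -1.19 against 0 h (SE 0.17, edgeR adjusted p = 0.000746). BACH1, a repressor of heme oxygenase and other stress genes, had 78.8 and 83.7 CPM at 0 h, 51.4 and 49.8 CPM at 2 h and 46.6 and 31.1 CPM at 6 h, and it fell by 1.08 at 6 h (SE 0.15). For PDE4D and BACH1 the larger part of the difference from 0 h was thus already present at 2 h, when neither passed in edgeR. OXR1, an oxidation resistance gene, had 113 and 79.6 CPM at 0 h and 53.4 and 30.4 CPM at 6 h (log2 fold change -1.22, SE 0.30, edgeR adjusted p = 0.0141). That call was lost without replicate 1 at 0 h (adjusted p = 0.0827) and without replicate 2 at 6 h (0.109). KIAA1217 had 75.9 and 55.4 CPM at 0 h and 40.6 and 24.5 CPM at 6 h (log2 fold change -1.02, SE 0.22). Its groups did not overlap.

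The other 27 members that fell in SPT6-AID cells had log2 fold changes from -0.97 to -0.50. Of all genes tested 16.4% fell, and of those with at least 1 CPM at 0 h 22.6%. The role lists below are small and none was tested against these shares. Grouped by role, in lists drawn up with earlier results of these data known, 5 of 25 members in the list of transcription and chromatin fell, with a list median of -0.23. They were BACH1, ARID1B (a subunit of the BAF chromatin remodelling complex, -0.82), FOXN3 (a forkhead transcription factor, -0.88), KDM4C (a histone demethylase, -0.71) and STAG1 (a cohesin subunit, -0.57). In the list of kinases, phosphatases and signalling, 4 of 18 fell (median -0.31): PDE4D, PRKCE (a protein kinase C, -0.83), TIAM1 (an activator of the GTPase Rac, -0.75) and RORA, which is a nuclear receptor rather than a kinase. Of 10 in adhesion, junction and polarity 1 fell, MAGI1, a junction scaffold (-0.89), and the list's median was 0.08. The remaining lists had 2 of 18 for cytoskeleton and small GTPases (median -0.23), 2 of 15 for membrane traffic (-0.23), 3 of 10 for metabolism (-0.13), 2 of 9 for genome maintenance and cell division (-0.28) and 1 of 4 for RNA binding (-0.36). No member of a role list rose. The 116 members in no role list held 18 that fell and both that rose (median -0.14). Members given without per-library values in this paragraph were named after their values were seen.

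Against the other members, KCNQ5 rose. This subunit of a voltage-gated potassium channel had 0.928 and 1.49 CPM at 0 h, 1.65 and 1.87 CPM at 2 h, and 5.43 and 7.41 CPM at 6 h in SPT6-AID cells. The log2 fold change at 6 h was 2.40 (SE 0.42, edgeR adjusted p = 0.00243), and both libraries at 6 h lay above all others of the line. In PAF1-AID cells it had 2.47 and 1.41 CPM at 0 h, 2.00 and 0.933 CPM at 2 h, and 0.979 and 1.17 CPM at 6 h, a log2 fold change of -0.74 (SE 0.42, adjusted p = 0.306). Of the 5 genes inside KCNQ5 that the table counts, 3 had no count in any library, the antisense gene KCNQ5-AS1 among them. CAMTA1, a calmodulin-binding transcription activator, had 32.9 and 31.3 CPM at 0 h and 40.9 and 43.0 CPM at 6 h (log2 fold change 0.38, SE 0.12, edgeR adjusted p = 0.0401). Its call and direction depended on the scaling: scaled by fly totals it was -0.06, and 14 of 20 other settings did not pass it.

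**Figure D2:**
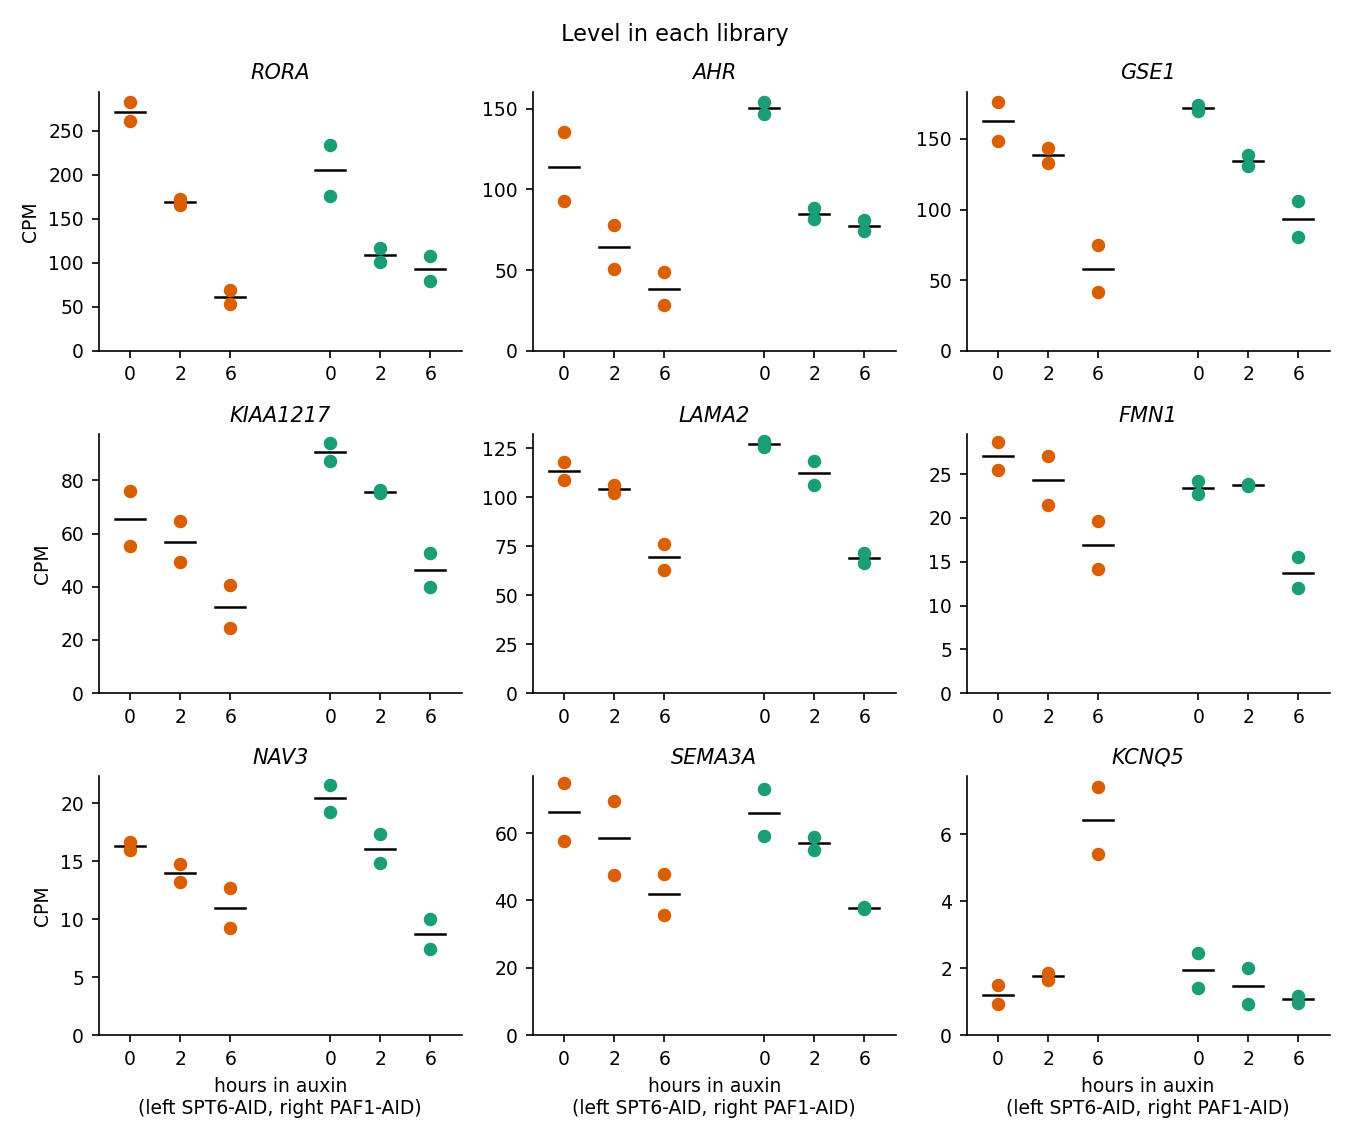
CPM in each of the 12 libraries (points) and group mean (bars) by hours in auxin, SPT6-AID at left in orange and PAF1-AID at right in green, for the 8 members that fell in both lines at 6 h and for KCNQ5. RORA and AHR are lower at 2 h already, GSE1 and LAMA2 chiefly at 6 h, and KCNQ5 is higher at 6 h in SPT6-AID cells, with 5.43 and 7.41 CPM.

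At 6 h in PAF1-AID cells, 14 members fell and none rose, 6.28% of the 223, while 10.9% of all genes tested passed (6.7% lower and 4.2% higher). The members' median was -0.11 and that of all genes 0.02. That of the 14552 other genes with at least 1 CPM at 0 h was -0.005. Of the 14775 genes with at least 1 CPM at 0 h, 9.09% fell and 3.64% rose. The members' share that fell was thus close to that of all genes tested and below that of genes with the same minimum level. No member rose at this threshold in edgeR, and DESeq2 called 1 higher. At an unadjusted p below 0.05 there were 40 members in either direction, 17.9% of the 223 beside 25.5% of all genes tested. The count rested on single libraries. Fewer members passed when any 1 PAF1-AID library was left out. Fewer of all genes tested passed in the same fits too, so the loss of calls was not particular to the members. Scaled by fly totals instead of TMM, 14.8% of members and 15.2% of all genes tested passed, with lower medians for both.

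DLEU1, a long non-coding RNA gene, had 7.74 and 5.74 CPM at 0 h, 4.15 and 4.13 CPM at 2 h, and 2.72 and 2.53 CPM at 6 h in PAF1-AID cells (log2 fold change at 6 h -1.25, SE 0.25, edgeR adjusted p = 0.0119). The 3 times did not overlap. FOXP1, a transcription factor of the forkhead family, had 10.1 and 8.31 CPM at 0 h, 8.10 and 8.98 CPM at 2 h, and 3.82 and 3.97 CPM at 6 h (log2 fold change -1.13, SE 0.30). GLIS3, a zinc finger factor, had 9.32 and 8.4 CPM at 0 h and 4.13 and 3.78 CPM at 6 h (log2 fold change -1.06, SE 0.29). TCF4, a basic helix-loop-helix factor, had 40.4 and 26.8 CPM at 0 h and 17.1 and 17.3 CPM at 6 h (log2 fold change -0.85, SE 0.19). For FOXP1, GLIS3 and TCF4 the libraries at 6 h lay below those at 0 h.

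In SPT6-AID cells these 3 did not pass: the log2 fold changes at 6 h were -0.68 for FOXP1, -0.15 for GLIS3 and 0.24 for TCF4. The difference between the lines did not pass for any of them either. They were the 3 of 25 members that fell in the list of transcription and chromatin, whose median was -0.34. MAST4, a kinase associated with microtubules, had 8.26 and 7.29 CPM at 0 h and 2.81 and 4.0 CPM at 6 h (log2 fold change -1.09, SE 0.22, edgeR adjusted p = 0.0122). NAV3, a neuron navigator protein that binds microtubule ends, had 21.6 and 19.3 CPM at 0 h and 7.45 and 10.0 CPM at 6 h (log2 fold change -1.12, SE 0.19, edgeR adjusted p = 0.00519). In both the libraries at 6 h were the lower ones. MAST4 and RORA were the 2 of 18 that fell in the list of kinases, phosphatases and signalling, and FMN1 the 1 of 18 in that of the cytoskeleton. The lists of adhesion (10 members), membrane traffic (15), RNA binding (4), metabolism (10) and genome maintenance (9) held none that passed. Of the 116 members in no role list, 8 fell. Of all genes tested 6.7% fell, and of those with at least 1 CPM at 0 h 9.09%. No list was tested against these shares.

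8 members fell at 6 h in both lines, which is 20.5% of those called in SPT6-AID cells and 57.1% of those called in PAF1-AID cells. The same overlap was not counted over all genes tested, so these shares do not set the members apart from other genes. They were RORA, AHR, GSE1, KIAA1217, LAMA2, FMN1, NAV3 and SEMA3A, a set picked after the values were seen. In PAF1-AID cells their calls depended on single libraries, replicate 3 at 6 h among them. LAMA2, the laminin alpha chain of muscle basement membrane, had 109 and 118 CPM at 0 h, 102 and 106 CPM at 2 h, and 76.0 and 63.0 CPM at 6 h in SPT6-AID cells. In PAF1-AID cells it had 126 and 129 CPM at 0 h, 106 and 119 CPM at 2 h, and 66.5 and 71.6 CPM at 6 h. The log2 fold changes at 6 h were -0.72 (SE 0.12, edgeR adjusted p = 0.00225) and -0.78 (SE 0.12, edgeR adjusted p = 0.00427), with the libraries at 6 h below those of both earlier times in each line. Its main transcript, of 65 exons, spans 633 kb, the whole gene.

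FMN1, a formin that nucleates actin filaments, had 28.7 and 25.5 CPM at 0 h and 19.6 and 14.2 CPM at 6 h in SPT6-AID cells. In PAF1-AID cells it had 22.7 and 24.2 CPM at 0 h, 23.6 and 23.9 CPM at 2 h, and 12 and 15.5 CPM at 6 h. The fall was of 0.69 and 0.67 on the log2 scale. SEMA3A, a secreted axon guidance factor, had 74.8 and 57.5 CPM at 0 h and 47.9 and 35.6 CPM at 6 h in SPT6-AID cells, and 73.1 and 59.0 CPM against 37.4 and 38 CPM in PAF1-AID cells (log2 fold changes -0.67 and -0.70). Both genes had no overlap between 0 and 6 h in either line. In PAF1-AID cells RORA stood at 78.8 and 108 CPM at 6 h (log2 fold change -1.03, SE 0.17), AHR at 74.1 and 80.7 CPM (-0.86, SE 0.24), GSE1 at 80.5 and 106 CPM (-0.78, SE 0.21) and KIAA1217 at 40.1 and 52.8 CPM (-0.86, SE 0.21).

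Across all 223 members, the log2 fold changes at 6 h were below 0 in both lines for 112, above 0 in both for 55 and of opposite sign for 56. Spearman's rank correlation between the lines was 0.51 and Pearson's r 0.42, across genes, which are not independent replicates. The same counts and correlations were not taken over all genes tested, so they do not set the members apart from other genes. The 2 lines share no library. In neither line at 6 h did 178 members pass, and 177 passed in none of the 8 comparisons made.

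**Figure D3:**
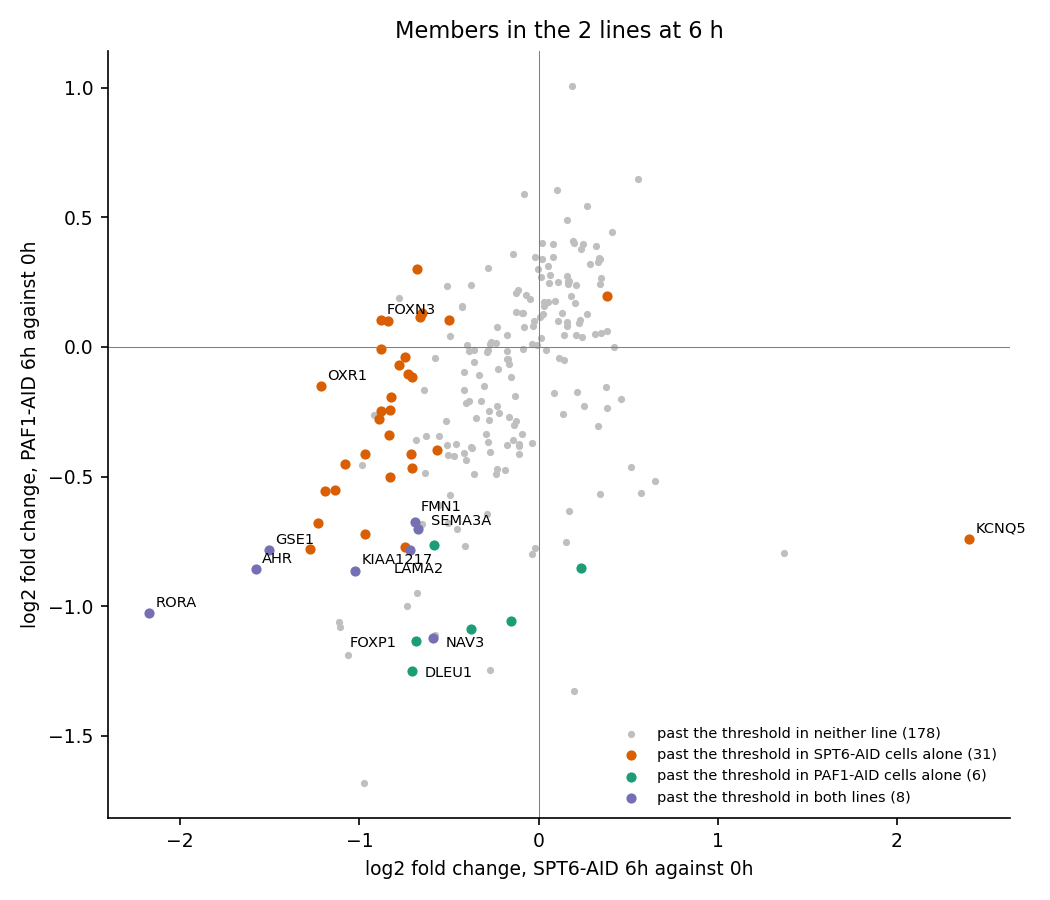
Log2 fold change at 6 h against 0 h in SPT6-AID cells (x axis) and in PAF1-AID cells (y axis) for each member, coloured by the line in which it passed the threshold. Most called members lie at lower left, 8 passed in both lines, and KCNQ5 lies alone at right with 2.40 and -0.74.

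The difference between the lines' responses at 6 h was tested directly, and 3 members passed, beside 3.74% of all genes tested. RORA fell further in SPT6-AID cells, with a log2 difference of -1.14 (SE 0.24, edgeR adjusted p = 0.0333). FOXN3 had 45.7 and 54.1 CPM at 0 h and 28.6 and 26 CPM at 6 h in SPT6-AID cells, and 74.5 and 61.3 CPM against 67.6 and 67.8 CPM in PAF1-AID cells. The SPT6-AID libraries at 6 h were lower than those at 0 h, while the PAF1-AID groups overlapped, and the difference in response was -0.98 (SE 0.21, edgeR adjusted p = 0.0365). For KCNQ5 the difference was 3.14 (SE 0.59, edgeR adjusted p = 0.0226). Each of these calls was lost when single libraries were left out. Fewer members passed without either SPT6-AID library at 0 h, replicate 2 of SPT6-AID at 6 h or any 1 PAF1-AID library. More passed without replicate 1 of SPT6-AID at 6 h. The number of all genes tested that passed also varied over such fits, so these changes do not set the members apart.

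Comparing 6 h with 2 h leaves out the untreated libraries that chose the members. In SPT6-AID cells 21 members were lower at 6 h than at 2 h and 2 higher, 10.3% of the 223, while 15.7% of all genes tested passed (10.4% lower and 5.32% higher). The members' median was -0.17, beside 0.02 for all genes and -0.07 for the 14552 other genes of at least 1 CPM at 0 h. RORA had the largest fall, 1.48 on the log2 scale (SE 0.17, edgeR adjusted p = 0.00109), then GSE1 with 1.27 (SE 0.21, edgeR adjusted p = 0.00371). GPHN (-1.05), RPTOR (-1.0) and KIAA1217 (-0.81) were again in the 10 largest, which also held DISC1, a neuronal scaffold (-0.88), SNX29, a sorting nexin (-0.85), and SIPA1L1, a GTPase-activating protein for Rap (-0.79). AHR, PDE4D and BACH1 were not among the 21.

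KCNQ5 rose by 1.86 between 2 and 6 h (SE 0.41, edgeR adjusted p = 0.0129). DLC1, a GTPase-activating protein, had 12.3 and 12.1 CPM at 0 h, 8.85 and 8.56 CPM at 2 h and 16.5 and 12.5 CPM at 6 h. It was lowest at 2 h and its rise from 2 to 6 h was 0.73 (SE 0.22, edgeR adjusted p = 0.0493). That call did not pass in 12 of 20 other settings, 8 of them with 1 library left out, and its adjusted p reached 0.313. Fewer members passed without replicate 2 at 6 h and without either library at 2 h. The number of all genes tested that passed also varied when a library was left out, so this does not set the members apart. In PAF1-AID cells 1 member passed between 2 and 6 h, LAMA2 (log2 fold change -0.68, SE 0.12, edgeR adjusted p = 0.0412), beside 0.875% of all genes tested. The members' median was -0.14, that of all genes 0.01 and that of the other genes of at least 1 CPM at 0 h -0.01. That single call was lost when any library but either SPT6-AID library at 6 h was left out.

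Set among expressed genes of other lengths, the members at 6 h in SPT6-AID cells had neither the most calls nor the lowest median. The share passing was 18.9% of 4569 genes under 10 kb, 27.5% of 3619 genes of 10 to 30 kb, 31.7% of 4215 genes of 30 to 100 kb, 35.1% of 1505 genes of 100 to 200 kb, 30.6% of 640 genes of 200 to 400 kb and 17.5% of the members. Median log2 fold changes over the same classes were 0.14, -0.09, -0.22, -0.32, -0.29 and -0.18. The shorter classes keep the kinds of gene that were left out of the members by name. Of genes under 10 kb in GENCODE 29, 48.0% are protein coding, against 93.9% at 200 to 400 kb and 96.4% of members. The classes differ in level too, with a median of 39.1 CPM at 100 to 200 kb, 27.1 CPM at 200 to 400 kb and 16.1 CPM for members. Among genes of at least 20 CPM the shares were 41.1%, 40.1% and 25.8% for the 3 longest classes, and the medians -0.39, -0.38 and -0.28. Among the shorter classes at that level the shares were 22.0% under 10 kb, 29.7% at 10 to 30 kb and 36.3% at 30 to 100 kb, with medians of 0.17, -0.09 and -0.26. Members thus had the smallest share of all classes at a minimum of 1 CPM, but not at 20 CPM, where genes under 10 kb had a smaller one. At both levels the members' share and median lay closer to 0 than those of genes of 100 to 200 kb and of 200 to 400 kb. These shares are a description of classes, and no test was made between them.

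In PAF1-AID cells at 6 h the shares passing were 9.85%, 15.4%, 15.2%, 11.2%, 7.81% and 6.28% from the shortest class to the members. Medians ran from 0.06 for genes under 10 kb to -0.06 for those of 200 to 400 kb and -0.11 for members. At 20 CPM or more, 7.55% of genes of 200 to 400 kb and 8.25% of members passed, with medians of -0.02 and -0.05. The largest shares in PAF1-AID cells were at 10 to 100 kb, a shorter range than in SPT6-AID cells.

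**Figure D4:**
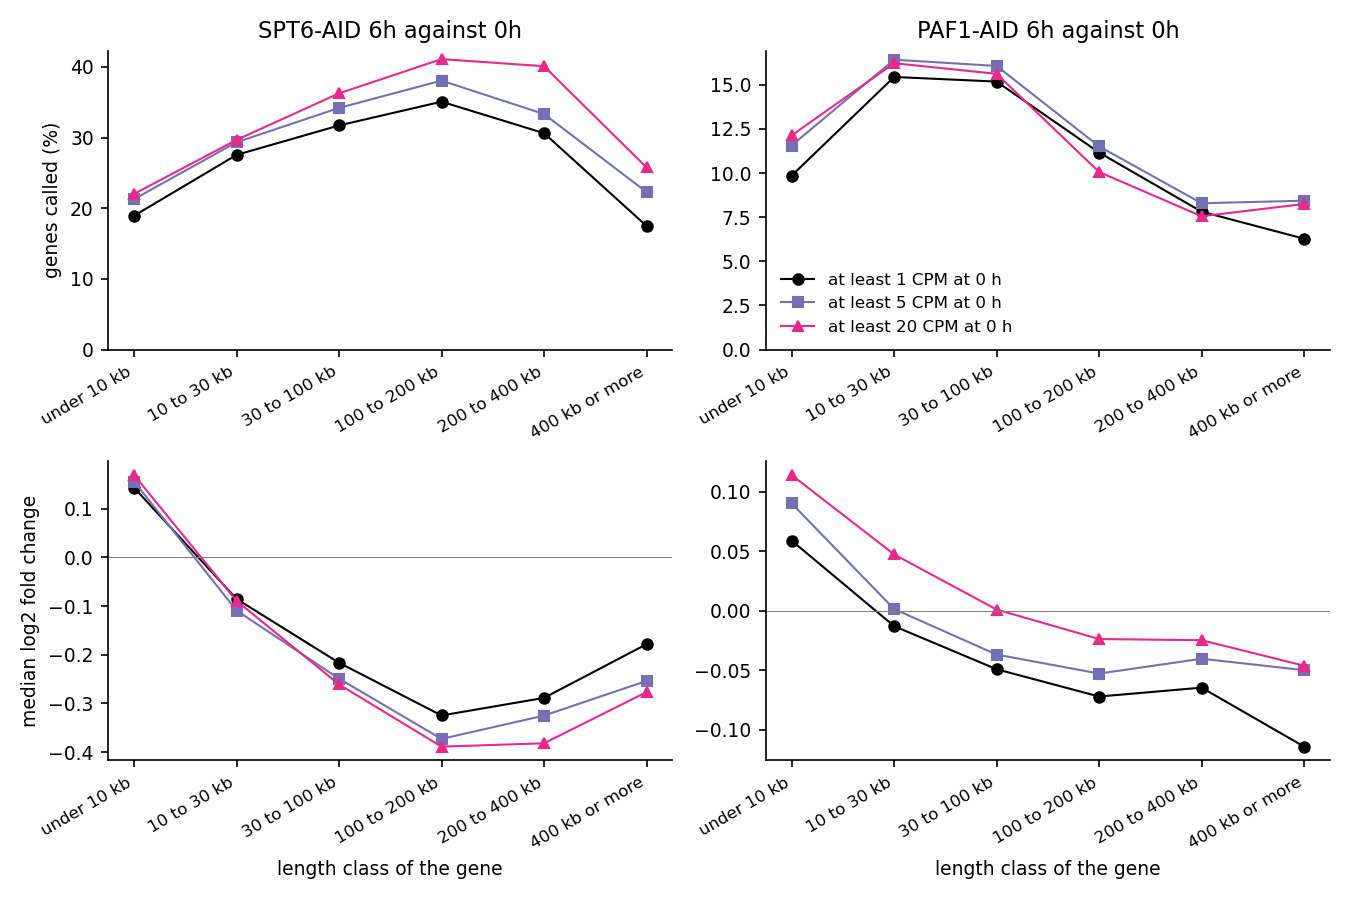
Percent of expressed genes called (upper panels) and median log2 fold change (lower panels) at 6 h against 0 h by class of deposited gene length, in SPT6-AID cells (left) and PAF1-AID cells (right), with lines for 3 minimum levels at 0 h. In SPT6-AID cells the share is highest at 100 to 200 kb (35.1%) and falls to 17.5% in the class of 400 kb or more. Only that class leaves out genes by name.

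The members were also grouped by the span of their main transcript. In PAF1-AID cells at 6 h, 3 of the 157 members whose main transcript spanned 400 kb or more fell (median -0.02), against 7 of the 44 at 200 to 400 kb (median -0.23) and 4 of the 22 under 200 kb (median -0.41). The 3 were RORA, FOXP1 and LAMA2. The shares called were 1.91%, 15.9% and 18.2%, beside 10.9% of all genes tested. In SPT6-AID cells 24 of 157 passed, 22 of them lower (median -0.16), against 11 of 44 (-0.29) and 4 of 22 (-0.26). These were 15.3%, 25% and 18.2%, beside 25.2% of all genes tested. The shorter ranges hold few calls, and no test was made between ranges. The 4 members under 200 kb that fell in SPT6-AID cells were AHR (main transcript of 47.5 kb), BACH1 (46.7 kb), GSE1 (63.0 kb) and OXR1 (94.8 kb). In PAF1-AID cells they were AHR, GSE1, DLEU1 (25.0 kb) and PUDP (98.4 kb), a pseudouridine phosphatase whose log2 fold change was -0.76 and which was named after its value was seen. For AHR, BACH1 and GSE1 the deposited length equals the span of all their transcripts in GENCODE 29. For OXR1, DLEU1 and PUDP it is longer than that span, with 483 against 393 kb, 825 against 641 kb and 480.3 against 99.3 kb. Gene-level counts do not say which transcript was measured. Spearman's rank correlation across the 223 members between the change at 6 h and the main span was 0.14 in SPT6-AID cells and 0.15 in PAF1-AID cells, and with the deposited length 0.13 and 0.05.

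**Figure D5:**
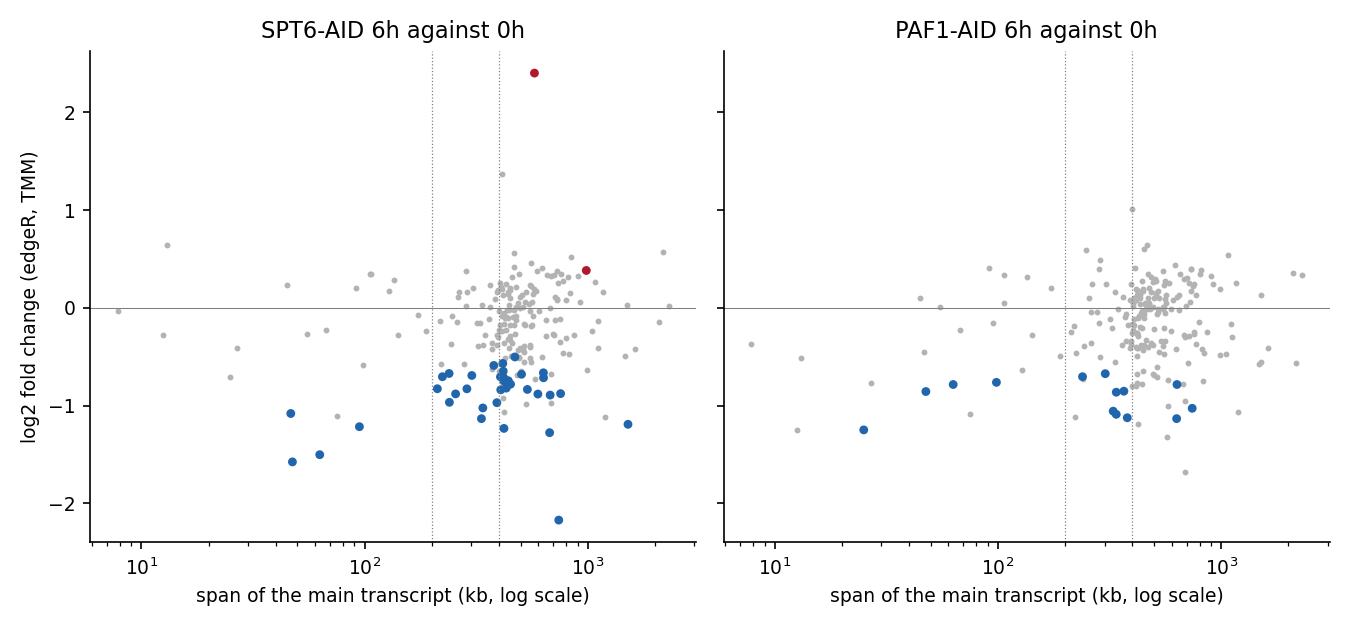
Log2 fold change at 6 h against 0 h (y axis) by the span of each member's main GENCODE transcript (x axis, log scale), SPT6-AID left and PAF1-AID right, with called members in blue (lower) or red (higher) and dotted lines at 200 and 400 kb. In PAF1-AID cells 3 of 157 members right of the 400 kb line are called, and 7 of 44 and 4 of 22 in the 2 shorter ranges. Of all genes tested 10.9% passed in PAF1-AID cells and 25.2% in SPT6-AID cells.

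Of the 5 longest members, 1 passed in any of the comparisons. CNTNAP2, an adhesion protein of the neurexin family and the longest member at 2305 kb, had 5.04 and 5.09 CPM at 0 h and 5.25 and 5.07 CPM at 6 h in SPT6-AID cells (log2 fold change 0.02, SE 0.55). DMD, dystrophin, at 2242 kb, had 15.0 and 12.5 CPM at 0 h and 14.8 and 10.3 CPM at 6 h (log2 fold change -0.14, SE 0.20). Their groups overlapped. DLG2, a synaptic scaffold of 2173 kb, had a log2 fold change of 0.57 (SE 0.34), and NRXN3, a neurexin of 1698 kb, one of -0.42 (SE 0.39). The member that passed was PDE4D, the fifth by length at 1553 kb. In PAF1-AID cells the same 5 had log2 fold changes at 6 h of 0.34, 0.36, -0.56, -0.41 and -0.56.

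16 members were in the list of common fragile site genes, and 1 of them, PDE4D, fell at 6 h in SPT6-AID cells, beside 16.4% of all genes tested. The list's median was 0.06 there and 0.16 in PAF1-AID cells, where none passed, beside 10.9% of all genes tested. FHIT, a tumour suppressor of 1504 kb at the best known fragile site, had 2.13 ± 0.31 CPM (SD, n = 2) at 0 h and 2.17 ± 0.24 CPM at 6 h in SPT6-AID cells. WWOX, a tumour suppressor of 1113 kb, had 7.33 ± 0.41 CPM and 6.71 ± 2.0 CPM. EXOC4, an exocyst subunit, GMDS, the first enzyme of GDP-fucose synthesis, and SMYD3, a lysine methyltransferase, had values of 0.32, 0.41 and 0.34 for the log2 fold change in SPT6-AID cells and 0.39, 0.44 and 0.24 in PAF1-AID cells, none past the threshold. AUTS2 had lower values in both lines (-1.11 and -1.06) with a wide spread (SE 0.50 in each), and did not pass. The values of VPS13B, PARD3B, DMD, NBEA, CNTNAP2, IMMP2L, MAD1L1 and DLG2 ran from -0.28 to 0.57 in SPT6-AID cells and from -0.56 to 0.55 in PAF1-AID cells.

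Genes for factors that act on long gene transcription were followed beside the members. Of 28 measured, 10 fell and CTR9, a PAF1 complex subunit, rose at 6 h in SPT6-AID cells. The shares of all genes tested were 16.4% lower and 8.76% higher. Those that fell included SCAF8, which prevents early polyadenylation (-1.67), and CDK12, a kinase of the polymerase tail known for long genes (-1.42), with LEO1, CDK13, CDC73, PCF11, SETD2, RTF1, TOP2A and CCNT1 between -1.31 and -0.47. In PAF1-AID cells 3 fell, SCAF8 (-1.17), CDK12 (-0.80) and PCF11, a cleavage and termination factor (-0.78), while SUPT6H, CDK9, SCAF4, CTR9 and TOP1 rose, from 0.41 to 0.87, beside 6.7% of all genes lower and 4.2% higher. PCF11 alone of the 28 passed at 2 h, in both lines (-0.90 and -1.06). Their part in the members' values was not tested.

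Some members cannot be counted cleanly. A gene on the opposite strand lies inside 205 of the 223 and one on the same strand inside 162, and the strand setting of the counting is not given in the sources used here. The deposited length equals the GENCODE 29 span for 116 members, so positions and spans from that release are approximate for the rest. RORA spans chr15:60488284-61229319, minus strand, and KCNQ5 chr6:72621792-73198851, plus strand, on GRCh38 in GENCODE 29.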

How the data were processed

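Poly(A) RNA was selected and turned into libraries with a kit that keeps strand, per the labels' protocols. Reads went through cutadapt 1.14, STAR 2.7.5 and featureCounts 2.0.0 on GRCh38 and BDGP6 (fly), per the submitters' processing notes. The authors deposited whole-number read counts per gene, not normalized, and for each gene its length and that of its transcript. How fly material was added, and the annotation release, are not given in the sources used here.

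Human genes passing edgeR's filterByExpr (20791) were scaled by TMM, and 6 group means were fitted over 12 libraries (edgeR 4.0.16, quasi-likelihood F test, Benjamini-Hochberg over all genes tested, threshold 0.05, two-sided). The SE of a log2 fold change is its size over the root of its F statistic. CPM divide a count by the library's human total, times 1e6. Libraries of a group were not copies (chi-square per degree of freedom 37.7 to 69.9). Alternatives were limma 3.58.1 (voom), DESeq2 1.42.0, other scalings, filters and choices of members, the replicate number as a block, and leaving out each library. On simulated data of 20791 genes for SPT6-AID 6h against 0h, edgeR recovered 42% of genes changed 2-fold and 86% of those changed 4-fold, with 8 false calls of 123. There, 50 genes were changed at each fold of 1.5, 2, 4 and 8, in random directions. In the real comparison 5230 genes were called, so these recovery rates need not hold for it.

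Members and gene lists were chosen with earlier results of these data known. Named were, per comparison, up to 10 members with the largest falls and 10 with the largest rises past the threshold in the same direction in both later libraries, the 5 highest and 5 longest members, those at the thresholds, fragile site genes, and called factors of long gene transcription. Any other name is said to have been picked with its values known. Some members that met this rule are not reported here by name.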

Additional observations from a re-analysis of the deposited data

Results flagged for a closer look

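The response at 6 h differed between the 2 lines, by a test of the difference itself (edgeR, adjusted over all genes tested), for 3 of the 223 members. For RORA the SPT6-AID response was the lower one by a log2 difference of -1.14 (adjusted p = 0.0333), and its libraries at 6 h lay below those at 0 h in both lines. For FOXN3 the difference was -0.98 (adjusted p = 0.0365), with lower values at 6 h in 2 of 2 SPT6-AID libraries. For KCNQ5 it was 3.14 (adjusted p = 0.0226), with higher values at 6 h in 2 of 2 SPT6-AID libraries. KCNQ5 had between 45 and 239 reads in a library, so counting error bears most on this gene of the 3.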

How the results depend on the processing

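DESeq2's size factors and limma-voom left every count of members called, in the 8 comparisons, within 1.5 times of the reported one. Scaled by fly totals, the count was 72 in SPT6-AID and 33 in PAF1-AID cells at 6 h (32.3% and 14.8% of members, beside 32.7% and 15.2% of all genes tested), 36 in SPT6-AID and 0 in PAF1-AID cells between 2 and 6 h, and 0 for the difference between lines at 6 h. The members' medians under that scaling were -0.16 and -0.61 in SPT6-AID cells at 2 and 6 h (all genes -0.12 and -0.39), -0.18 and -0.51 in PAF1-AID cells (all genes -0.22 and -0.37), and -0.46 and -0.30 between 2 and 6 h. CAMTA1 turned to -0.064. Scaled by total counts, the median in PAF1-AID cells at 6 h was -0.22, the count between 2 and 6 h there was 0, and that for the difference at 6 h was 1. The cause was not tested.

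With no filter, the counts were 4 and 3 at 2 h in SPT6-AID and PAF1-AID cells, 28 at 6 h in the latter, 37 and 11 between 2 and 6 h, and 9 for the difference at 6 h. At 2 h these were 1.79% and 1.35% of members, beside 0.981% and 0.707% of the 38744 genes tested without a filter. At 6 h 20.2% of members passed in SPT6-AID and 12.6% in PAF1-AID cells, beside 14.9% and 7.36% of those genes. The members' shares were thus above those of all genes in this setting, which adds genes of low counts. A minimum mean of 1 CPM left 1 for that difference. DESeq2's test gave 4 and 1 at 2 h, 28 at 6 h with PAF1-AID, 15 there between 2 and 6 h, and 8 for the difference. The first 3 of these were 1.79%, 0.448% and 12.6% of members, beside 2.45%, 1.32% and 14.4% of all genes tested. A fit of the line alone gave 23 in PAF1-AID cells at 6 h (10.3% of members, beside 12.6% of all genes tested), and 6 and 0 between 2 and 6 h.

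Same-numbered libraries of a line deviated together, with correlations of 0.491 to 0.660, but with only 2 numbers a line and no label saying what a number stands for they share only a number. With the replicate block the counts were 8, 116, 12 and 101 for 2 and 6 h in SPT6-AID cells and then PAF1-AID cells, 101 and 64 between 2 and 6 h, and 49 for the difference at 6 h. The shares of members were 3.59%, 52.0%, 5.38%, 45.3%, 45.3%, 28.7% and 22.0%, and those of all genes tested in the same fit 7.76%, 51.4%, 6.98%, 38.3%, 40.7%, 20.1% and 21.7%. RORA, AHR and PDE4D were among the calls at 2 h in both lines. All 38 calls of named members passed under it.

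A minimum length of 300 kb (391 genes) gave 1, 80 and 53 called in SPT6-AID cells at 2 h, 6 h and between them, 23 in PAF1-AID cells at 6 h and 9 for the difference. At 600 kb (76 genes) the counts were 10, 7, 6 and 1, and the medians in PAF1-AID cells -0.018 at 6 h and -0.059 between 2 and 6 h. At 6 h the 300 kb set had 20.5% called in SPT6-AID and 5.88% in PAF1-AID cells, and the 600 kb set 13.2% and 7.89%. Of all genes tested, 0.548%, 25.2% and 15.7% passed in SPT6-AID cells at 2 h, 6 h and between 2 and 6 h. The shares of all genes were 10.9% in PAF1-AID cells at 6 h and 3.74% for the difference. Requiring a main transcript of 400 kb (157 members) gave 24 and 14 in SPT6-AID cells at 6 h and between 2 and 6 h, and 3 in PAF1-AID cells at 6 h, with a median of -0.021. The share called there was 1.91% of these members, against 6.28% of the 223 and 10.9% of all genes tested. The cause was not tested.

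Leaving out 1 library gave 0 to 1 and 18 to 43 members at 2 and 6 h in SPT6-AID cells, 0 and 0 to 20 in PAF1-AID cells, 4 to 31 and 0 to 3 between 2 and 6 h, and 0 to 9 for the difference at 6 h. Medians ran from -0.07 to 0.00 and from -0.28 to -0.13 in SPT6-AID cells, from -0.02 to 0.11 and from -0.19 to -0.029 in PAF1-AID cells, and from -0.25 to -0.13 and from -0.23 to -0.073 between 2 and 6 h. For the difference between lines they ran from -0.15 to -0.04 at 2 h and from -0.18 to 0.00 at 6 h. Of the calls of named members, 347 held and 109 did not pass over these fits. The number of all genes tested that passed also varied over these fits. A group left with 1 library borrowed its spread from the other groups. Of the 57 members under 5 CPM at 0 h, 2 passed at 6 h in SPT6-AID and 0 in PAF1-AID cells, against 37 and 14 of the 166 at 5 CPM or more.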

Other observations

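Some members differed more between the libraries of a line than between times. PCDH7, a protocadherin, had 6.78 CPM in PAF1-AID replicate 3 and 0 in replicate 4 at 0 h, 4.77 and 0.0415 CPM at 2 h, and 2.46 and 0.0845 CPM at 6 h. BMPR1B, a receptor for bone morphogenetic proteins, had 11.9 and 1.69 CPM at 0 h, 13.1 and 1.70 CPM at 2 h, and 12.8 and 2.7 CPM at 6 h in the same libraries. These were the 2 members that differed at least 4-fold between replicates 3 and 4 at all 3 times (0.5 CPM added), and 0 did between replicates 1 and 2 of SPT6-AID cells. Replicate 3 was the higher of the 2 at every time for both genes. FRMD4A, singled out after its values were seen, had 2.60, 2.51 and 1.27 CPM at 0, 2 and 6 h in SPT6-AID replicate 1 and 0, 0.0272 and 0 CPM in replicate 2. Neither PCDH7, BMPR1B nor FRMD4A passed the threshold at 6 h in either line.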
